A study of Xenopus tropicalis with 45 samples.

Results

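Binding of the histone deacetylase Hdac1 was compared with binding of the transcription factor Sox3 in whole *Xenopus tropicalis* embryos at stage 9 (st9), the late blastula. The members are all peaks of both deposited ChIP-seq lists, 5136 Hdac1 peaks and 15695 Sox3 peaks, which makes 20831 regions from 4 of the 45 samples of the study. Each list was made by the authors from 2 replicates of untreated wild-type embryos and was limited to peaks with an irreproducible discovery rate (IDR) of at most 0.05. Hdac1 was precipitated with a commercial antibody and Sox3 with an antibody from an earlier study. Other samples serve here as yardsticks. At st9 these are whole embryos kept in 100 nM TSA, or in its solvent DMSO, since the 4-cell stage and precipitated for Hdac1, and untreated embryos precipitated for Hdac2, with 1 library each. Further lists hold Hdac1 peaks of untreated embryos at st10.5 and st8, and peaks of pan-H3Kac, an antibody against acetylated histone H3, at st10.5 in whole embryos and in DMSO-treated animal cap (AC) and vegetal mass (VG) explants. The RNA-seq samples are AC and VG explants at st10.5 from wild-type embryos treated with 100 nM TSA or DMSO, or with 10 mM VPA or water, with 2 replicates per group. TSA and VPA inhibit histone deacetylases. Nothing in the labels says that replicates of the RNA-seq come from separate clutches, so p-values measure the spread between these samples only.

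Hdac1 is a class I deacetylase that removes acetyl groups from histone tails. It has no sequence specificity of its own and reaches chromatin as the catalytic part of complexes such as NuRD, Sin3 and CoREST, which transcription factors can bring to DNA. Sox3 is a SoxB1 protein that binds DNA through its HMG box. In *Xenopus* its RNA is laid down in the egg, and it is known for keeping the prospective ectoderm uncommitted and for limiting the activation of endodermal genes. The AC gives rise to ectoderm and the VG to endoderm, with mesoderm forming between them. The comparison addresses whether Hdac1 sits at the sites of a maternal factor when the zygotic genome has just begun to be transcribed.

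The study designed primer pairs for ChIP-qPCR at 19 genes. Those of 4 genes are given here because these genes stand for the classes described below. *sp8*, a zinc finger factor gene, and *foxa4*, a forkhead factor gene of the dorsal midline and endoderm, carried peaks of both proteins. *erfl*, an ETS family gene, carried an Hdac1 peak and no Sox3 peak, and *klf11*, a Krüppel-like factor gene, carried neither. The primers are written 5′ to 3′ in lower case. By the study's labels, the *sp8* pair lies downstream of the gene, the *foxa4* and *erfl* pairs in an intron and the *klf11* pair in an exon. The *sp8* peak described below lies inside the span of the gene. The primers were not placed on the genome here, so which peak a pair amplifies, if any, is not known.
sp8 forward: atgtgctaagtggggctcat
sp8 reverse: ggacactcagtggtcactgt
foxa4 forward: atcagcacttttgtgtcctt
foxa4 reverse: actgtttggggttggaatg
erfl forward: attagcactgggacggctct
erfl reverse: gctgtcccagtgctgattatag
klf11 forward: tcccatttctgttcctgtgt
klf11 reverse: ggagaataggctttactgtatta

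Most Hdac1 peaks overlapped a Sox3 peak, and most Sox3 peaks did not overlap an Hdac1 peak. With an overlap of at least 1 bp, 4190 of the 5136 Hdac1 peaks (81.6%, Wilson 95% confidence interval 80.5 to 82.6%) met Sox3, and 946 (18.4%) did not. Of the 15695 Sox3 peaks, 4228 (26.9%, 26.3 to 27.6%) met Hdac1, and 11467 (73.1%) did not. The lists hold no reads and no value per Hdac1 replicate. The depth behind a peak is therefore unknown, the intervals cover counting error only, and no share could be set against a spread between replicates.

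The overlap was nearly always between a single peak of each list. It comprised 4269 pairs, in which 4114 Hdac1 peaks met 1 Sox3 peak, 73 met 2 and 3 met 3. Among the Sox3 peaks, 4188 met 1 Hdac1 peak, 39 met 2 and 1 met 3. Hdac1 peaks covered 4.16 Mb with a median length of 668 bp, and Sox3 peaks covered 9.31 Mb with a median length of 522 bp. The bases shared by both lists amount to 65.6% of those covered by Hdac1 and 29.3% of those covered by Sox3. The median pair shared 582 bp. In 1508 pairs the Hdac1 peak lay wholly inside the Sox3 peak, and in 862 pairs the Sox3 peak lay wholly inside the Hdac1 peak.

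Overlapping peaks had higher values in both lists. The value of an Hdac1 peak is its fold enrichment over input at the summit, and that of a Sox3 peak is a combined score of both inputs of the IDR run, which has no fixed unit. The Hdac1 fold had a median of 6.84 (quartiles 5.77 and 8.67) at peaks with Sox3 and of 5.56 (5.02 and 6.41) at peaks without. The Sox3 score had a median of 37.8 (24.7 and 57.4) at peaks with Hdac1 and of 18.5 (14.9 and 25.0) at peaks without. The quartiles of the Sox3 score in these classes nearly part, while those of the Hdac1 fold overlap.

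The share of peaks with the other protein was higher in each successive class of enrichment. When Hdac1 peaks were divided by fold into 5 bins of nearly equal size, 60.9% of the lowest bin (fold 2.02 to 5.38) overlapped Sox3. The next bins had 74.8%, 85.0% and 90.7%, and the highest bin (fold 8.86 to 23.5) had 96.8%. When Sox3 peaks were divided by score into 10 bins, 5.29% of the lowest bin (score 11.7 to 13.6) and 79.9% of the highest bin (score 52.7 to 181) overlapped Hdac1. In bin 5 the share was 14.9%, and in bin 9 it was 57.6%, so most of the increase lies in the highest bins. Peak length differed along these classes as well, with a median of 642 bp in the lowest and 800 bp in the highest bin of Hdac1 fold. In the lowest and highest bins of Sox3 score the median was 398 and 797 bp, and Sox3 peaks were not divided by length. Divided by length instead, the 5 bins of Hdac1 peaks, from short to long, overlapped Sox3 in 80.7%, 84.6%, 86.1%, 83.1% and 73.4%, and the longest peaks thus had the lowest share.

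**Figure D1:**
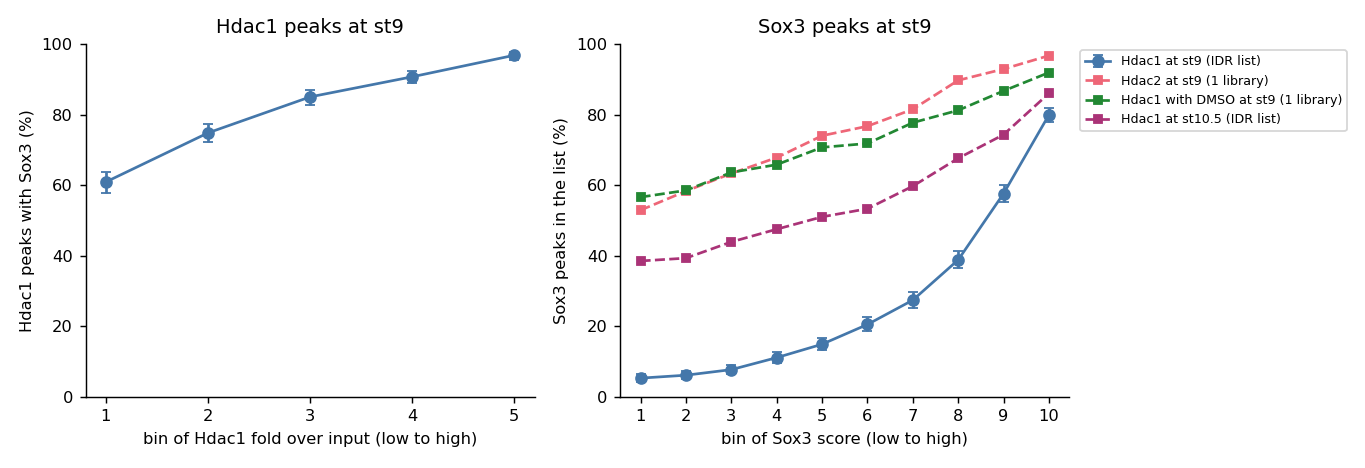
Share of Hdac1 peaks that overlap Sox3 in 5 bins of Hdac1 fold over input (left, %) and share of Sox3 peaks found in 4 deacetylase lists in 10 bins of Sox3 score (right, %). Bars are Wilson 95% intervals and cover counting error only; the share of Sox3 peaks found in the Hdac1 list at st9 goes up to 79.9% in the highest bin, where the single-library lists of Hdac2 and of Hdac1 with DMSO reach 96.7% and 91.9%.

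The 73.1% of Sox3 peaks without Hdac1 depends on the Hdac1 list used. The lists of single libraries at st9, which did not pass a filter between replicates, are far longer. They hold 36709 peaks for Hdac2, 45185 for Hdac1 with DMSO and 49023 for Hdac1 with TSA. Of the 11467 Sox3 peaks without a peak in the Hdac1 list, 66.7% overlapped the Hdac2 list, 64.7% the Hdac1 list with DMSO and 59.8% that with TSA. The Hdac1 list at st10.5, which passed the same IDR threshold and holds 22681 peaks, contained 46.2% of them, and the list at st8, with 1340 peaks, contained 1.22%. The lowest bin of Sox3 score had 56.6% of its peaks in the Hdac1 list with DMSO and 52.9% in the Hdac2 list. A Sox3 site absent from the replicated Hdac1 list was thus in most cases present in a single-library list of the same stage.

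The summits of overlapping peaks lay close together. From the Hdac1 summit, the nearest Sox3 summit among the peaks it overlapped was at a median of 35 bp (quartiles 16 and 64 bp), with 65.4% within 50 bp and 88.5% within 100 bp. A distance within 250 bp was found for 95.9% of the 4190 Hdac1 peaks. Over all 5136 Hdac1 peaks, the share with a Sox3 summit within 100 bp was 72.2%. The direction was balanced, with the Sox3 summit at the higher coordinate in 2084 peaks, at the lower coordinate in 2060 and at the same base in 46. The distance was smaller at stronger peaks, with a median of 29 bp in the highest and 45 bp in the lowest bin of Hdac1 fold.

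The Sox3 summit was as close to the Hdac1 summit as that of another deacetylase library. Over the 3675 Hdac1 peaks that overlapped all 4 lists, the median distance was 36 bp to Sox3, 40 bp to Hdac2, 46 bp to Hdac1 with DMSO and 51 bp to Hdac1 with TSA. Peak by peak, the Sox3 summit was nearer than that of Hdac2 in 1894 (51.5%) and farther in 1743 (47.4%). Against Hdac1 with DMSO it was nearer in 2130 (58.0%) and farther in 1517 (41.3%), and against Hdac1 with TSA nearer in 2184 (59.4%) and farther in 1467 (39.9%). The summits of both inputs of the Sox3 list lay 24 bp apart in the median over all Sox3 peaks, which is the closest of these distances. The Hdac2, DMSO and TSA lists come from single libraries, and the replicated lists from 2, so these differences cannot be told apart from the number of libraries behind a summit.

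**Figure D2:**
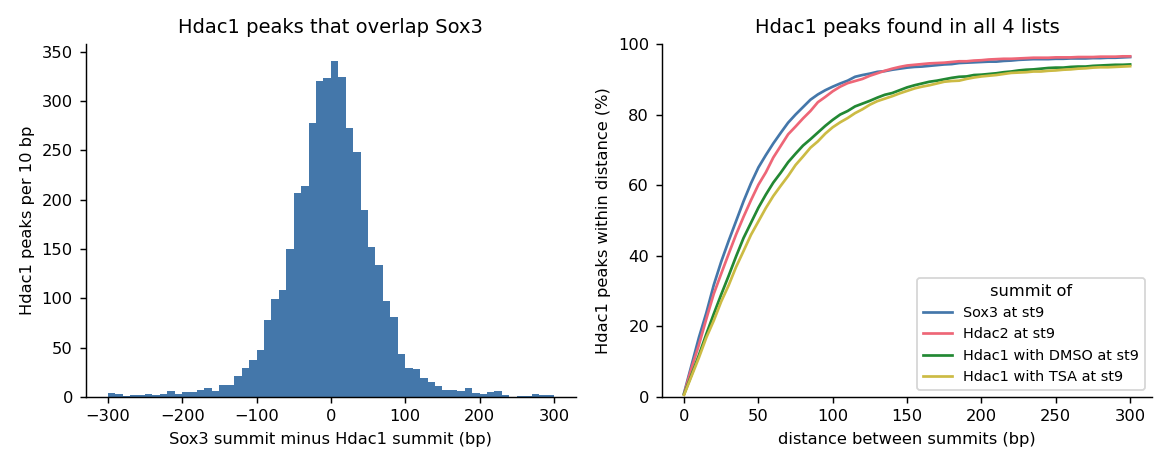
Distance of summits at Hdac1 peaks of st9. The left panel gives the position of the Sox3 summit relative to the Hdac1 summit (bp, 10 bp per bar, number of Hdac1 peaks) and the right panel the share of the 3675 Hdac1 peaks found in all 4 lists whose summit lies within a distance (%, bp); the curves of Sox3 and Hdac2 run together above those of Hdac1 with DMSO and with TSA.

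The fold of Hdac1 and the score of Sox3 varied together across the shared sites. Over the 4190 Hdac1 peaks that overlapped Sox3, Spearman's rho was 0.547 and Pearson's r of log2 values 0.562. In 5 bins of Sox3 score, from low to high, the median Hdac1 fold was 5.82, 6.28, 6.84, 7.50 and 9.64. The spread within a bin was wide, from 2.21 to 23.5 in the highest. These values are a description over sites, which share libraries, input and base composition and are not replicates.

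Other pairs of lists give a scale for that value. Over the 3875 Hdac1 peaks that also overlapped the Hdac2 list and the Hdac1 list with DMSO, the rho of Hdac1 fold was 0.552 with Sox3 score, 0.659 with Hdac2 fold and 0.496 with the fold of Hdac1 with DMSO. Over the same peaks, Sox3 score had a rho of 0.536 with Hdac2 fold and of 0.4 with the fold of Hdac1 with DMSO. The Hdac2 and DMSO lists come from 1 library each, and the part of this in their values was not tested. Peak length and Sox3 score had a rho of 0.226 over all 4190 peaks. The relation of Sox3 score to histone acetylation was weak, with a rho of 0.0708 between it and pan-H3Kac fold at st10.5 over 2795 peaks. The values of both inputs of the Sox3 list had a rho of 0.902 over all Sox3 peaks.

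**Figure D3:**
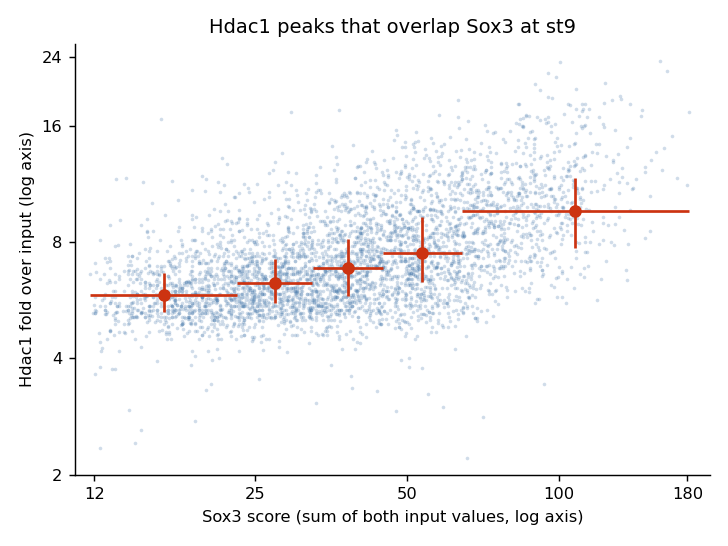
Hdac1 fold over input against Sox3 score at the 4190 Hdac1 peaks of st9 that overlap Sox3 (both axes log; each point 1 peak). Red points and bars give the median and quartiles of the fold in 5 bins of Sox3 score, whose medians run from 5.82 to 9.64.

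The strongest shared sites are given by their nearest gene, which for 4 of the 9 sites lies beyond 10 kb. Coordinates are those of the *X. tropicalis* v10.0 genome. The shared peak with the highest Hdac1 fold (23.5, Sox3 score 159) lies at chr3:42502093-42502928, 43258 bp from *msx2*, a homeobox gene downstream of BMP signaling, with summits 9 bp apart. The next (23.4, score 101) lies inside *tet3*, which encodes an enzyme that oxidizes 5-methylcytosine, with summits 37 bp apart. A peak 14956 bp from *lman1*, the gene of a cargo receptor of the secretory pathway, had a fold of 22.1 and a score of 164, with summits 2 bp apart, and is the only one among both the 5 highest by fold and the 5 highest by score. Those inside *foxp4*, a forkhead gene (21.9, score 95.1), and 10794 bp from *irx1*, an Iroquois homeobox gene (21.3, score 99.0), complete the 5 highest by fold. The highest scores of Sox3 at a shared site were 181 inside *ehbp1*, which acts in endocytic traffic, and 180 at 32599 bp from *not*, a homeobox gene of the notochord. They were followed by 172 near *gatm*, an enzyme gene of creatine synthesis, and 168 near *rybp*, a gene of a Polycomb complex component. Hdac1 fold at these 4 sites was 17.4, 11.2, 11.7 and 15.

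The strongest Hdac1 peaks without Sox3 lay at or in the span of a gene. The first (fold 13.6) lies at chr1:48798040-48801414, 721 bp from *hmgb2*, which encodes a chromatin protein with HMG boxes, and its nearest Sox3 summit is 3957 bp away. The others lie inside *qtrt1*, a gene of a tRNA modifying enzyme (13.2), *htra3*, a protease gene (12.7), *cyb5r3*, a reductase gene (12.5), and LOC100486003 (12). Their nearest Sox3 summits were 155193, 37297, 44542 and 3842 bp away. These folds are well below those of the strongest shared peaks.

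The strongest Sox3 peaks without Hdac1 were in most cases found in other Hdac1 lists. The highest score (138) belonged to a peak at chr5:11196294-11197055, 127554 bp from *lyplal1*, a gene of a lysophospholipase-like protein. The next were 128 near *bmpr1a*, a type I BMP receptor gene, 121 inside *stk40*, a kinase-like gene, 121 near *trnaa-agc*, an alanine tRNA gene, and 117 inside *cacna2d3*, a calcium channel subunit gene. All of these but the *cacna2d3* peak overlapped both the Hdac1 list with DMSO and the Hdac2 list at st9. Of the 942 Sox3 peaks without Hdac1 whose score reached the median of those with it, 84.2% were in the Hdac2 list and 75.4% in the Hdac1 list with DMSO.

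Hdac1 peaks without Sox3 lay far more often at gene ends. The annotation at hand gives the span of each gene without strand, so a start cannot be told from a termination site. A gene end lay within 1 kb of the summit in 527 of 4190 Hdac1 peaks with Sox3 (12.6%, 11.6 to 13.6%), against 452 of 945 without (47.8%, 44.7 to 51.0%). In the 5 bins of Hdac1 fold from low to high, these shares were 19.5%, 16.3%, 10.9%, 12.2% and 7.15% with Sox3, against 46.7%, 46.7%, 52.3%, 53.7% and 33.3% without. The contrast is therefore present at every level of fold. Beyond 10 kb of any gene lay 20.4% of the peaks with Sox3 and 6.98% of those without. Sox3 peaks without Hdac1 had no such place at gene ends, with 16.4% within 1 kb of one, against 12.8% of Sox3 peaks with Hdac1 in the same count.

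Few unshared peaks had a summit of the other protein within 1 kb, which their lack of overlap sets in part. From an Hdac1 summit without Sox3, the nearest Sox3 summit was at a median of 10356 bp. Of these peaks, 3.39% had one within 1 kb and 49.3% within 10 kb. From a Sox3 summit without Hdac1, the nearest Hdac1 summit was at a median of 79960 bp, with 0.951% within 1 kb and 19.1% within 10 kb. The lists differ in number of peaks by a factor that also sets these distances.

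Both classes of Hdac1 peak were found again in other Hdac1 libraries. The Hdac1 list with DMSO contained 93.5% of the Hdac1 peaks with Sox3 and 91.0% of those without, and the Hdac1 list at st10.5 contained 83.1% and 78.5%. In the Hdac2 list the shares were 98.8% with Sox3 and 89.9% without. The order was the other way at st8, where 8.76% of the peaks with Sox3 and 13.6% of those without were already in the Hdac1 list.

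Histone acetylation at st10.5 stood in different shares at the classes of Hdac1 peak. At st10.5, pan-H3Kac was found in AC only at 29.0% (27.7 to 30.4%) of Hdac1 peaks with Sox3 and 19.1% (16.8 to 21.8%) of those without. It was found in VG only at 14.7% (13.7 to 15.9%) with Sox3 and 7.19% (5.71 to 9.01%) without. Peaks acetylated in both explants made up 23.9% with Sox3 and 30.7% without, and 32.3% with and 43.0% without were in neither explant's list. Position along genes moved with these shares. Within 1 kb of a gene end, acetylation in both explants was found at 44.0% of peaks with Sox3 and 45.6% of those without, and acetylation in a single explant at 35.5% with Sox3 and 22.6% without. Away from gene ends, acetylation in both explants was found at 21.0% with Sox3 and 16.8% without, and in a single explant at 45.0% with Sox3 and 29.8% without. The larger share of acetylation in a single explant at Sox3 sites was thus present at gene ends and away from them, and in every bin of Hdac1 fold, while the share acetylated in both explants followed position.

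Each summit was assigned to its nearest gene within 10 kb. Of 28773 genes with a location, 2452 (8.52%) had peaks of both proteins, 353 (1.23%) had Hdac1 only, 4292 (14.9%) had Sox3 only and 21676 had neither. Of the genes with Hdac1, 87.4% (86.1 to 88.6%) had Sox3, and of the genes with Sox3, 36.4% (35.2 to 37.5%) had Hdac1. Genes that had both nearly always had them at a common site. An Hdac1 peak that overlapped Sox3 was found at 2264 of the 2452 (92.3%) and not at 188. Of all Hdac1 peaks 81.6% overlapped Sox3, with summits close together, so a high share follows in part from the overlap of peaks. The share of genes with Hdac1 was 20.7% among genes with 1 Sox3 peak, 46.6% with 2, 67.4% with 3, 81.6% with 4 and 89.8% with 5 or more. Long genes hold more peaks of any list, and gene length was not taken into account in these shares.

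The most Hdac1 peaks with Sox3 were assigned to *bcor*, a corepressor gene (chr2:57314182-57412378), with 12 of its 13 Hdac1 peaks and 17 Sox3 peaks. It was followed by *macrod2*, an ADP-ribose hydrolase gene with a span of over a megabase (11 of 11), *zeb2*, a gene of a zinc finger repressor (9 of 10), *znf608*, a zinc finger gene (8 of 8), and *ehbp1* (7 of 7). The genes of both proteins had peaks of both within 10 kb, although by nearest gene *hdac1* was classed as Sox3 only. Within 10 kb of *sox3* lay 3 Hdac1 and 5 Sox3 peaks, of which 1 pair overlapped, and within 10 kb of *hdac1* lay 3 Hdac1 and 5 Sox3 peaks with 3 overlapping pairs. *hdac2* had no peak of either list within 10 kb.

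Genes of embryonic patterning had peaks of both proteins far above the 8.52% of all genes and the 10.6% of protein-coding genes. Among the genes of ectoderm, 21 of 26 had both and 4 had Sox3 only. Those with most overlapping pairs within 10 kb were *foxi4.2*, a forkhead gene of the AC (6 pairs, top Hdac1 fold 10.6, top Sox3 score 119), *lhx5*, a LIM homeobox gene (4 pairs, 17.5, 111), and *dlx6*, a distal-less homeobox gene (4 pairs, 12.4, 111). Among the genes of endoderm, 12 of 18 had both and 4 had Sox3 only. They include *vegt*, the maternal T-box factor of the VG (5 pairs, 11.6, 78.9), *foxa4* (4 pairs, 8.93, 93.6) and *gata4*, a GATA factor gene (3 pairs, 18.1, 111). Sites shared by Hdac1 and Sox3 thus lay beside genes of ectoderm and beside genes of endoderm.

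Mesoderm and organizer genes held the same class. Of 32 mesoderm genes, 24 had both, 4 had Sox3 only and 1, *myod1*, the muscle determination gene, had Hdac1 only. *pax3* had 7 pairs, *ventx2.2*, a ventral homeobox gene, had 6, and *snai1*, a zinc finger repressor gene of mesoderm and neural crest, had 4 with a top fold of 19.8. Of 20 organizer genes, 15 had both and 3 had Sox3 only, with 5 pairs at *not* and 3 at *gsc*, the homeobox gene of the organizer. Stretches around neighboring genes of the *ventx* cluster overlap, and some peaks are counted at several of them.

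Signaling genes with peaks of both proteins included ligands, receptors, inhibitors and effectors. In the BMP list 16 of 23 genes had both, and in the list of nodal and TGFb signaling 13 of 22. Examples are *nodal1* and *nodal2*, ligand genes with 3 pairs each. The stretches around these neighbors overlap, and some peaks are counted at both. Inhibitor examples were *lefty* with 5 pairs, *smad7* with 5, and *bambi*, a pseudoreceptor gene, with 4 and a top Sox3 score of 127. The FGF list had 15 of 23, with 5 pairs at *spry2*, a feedback inhibitor, and 4 at the receptor gene *fgfr2*. The Notch list had 11 of 16, with 5 pairs at the ligand gene *dll1* and 5 at *lfng*, which encodes a glycosyltransferase that modifies Notch. Of 45 Wnt genes 21 had both, including the ligand gene *wnt5b* (5 pairs) and the effector genes *tcf7l1* (4) and *lef1* (3), and *wnt5a* had Hdac1 only.

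Genes of maternal factors and of the Sox family were bound in part. Of 17 maternal factor genes 11 had both, among them *pou5f3.2* and *pou5f3.1*, relatives of the mammalian pluripotency gene Oct4, with 5 pairs each within 10 kb. *pou5f3.3*, their neighbor, had Hdac1 only by nearest gene, with 3 pairs within 10 kb. Stretches around the *pou5f3* genes overlap, and some peaks are counted at several of them. Of 19 Sox genes, 9 had both and 3 had Sox3 only. *sox15* had the highest Sox3 score of these (156, top Hdac1 fold 13.7), and *sox1* and *sox4* had Hdac1 only. The list of deacetylase complexes had 10 of 28 with both and 10 with Sox3 only, with 1 pair each at *kdm1a*, the gene of a histone demethylase of CoREST, and its scaffold *rcor1*.

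Other lists had smaller shares with both. The share of the ribosomal protein genes (3.95%) rests on 3 genes, and its difference from the 8.52% of all genes was not tested. Of 76 ribosomal protein genes, 3 had both (*rps18*, *rpl14* and *rpl7*), *rps27* and *rps13* had Hdac1 only and 62 had neither. Of 36 Hox genes, 6 had both (16.7%), *hoxb5* had Hdac1 only by nearest gene, with 1 pair within 10 kb, 10 had Sox3 only and 19 had neither. The germ plasm list had 1 of 9 with both (11.1%), *ddx4*, an RNA helicase gene. Of 35 cell cycle genes 9 had both (25.7%), with 6 pairs at *cdc25b*, the gene of a phosphatase that drives entry into mitosis, and *ccna1*, with 1 pair within 10 kb, and *mcm2* had Hdac1 only by nearest gene.

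**Figure D4:**
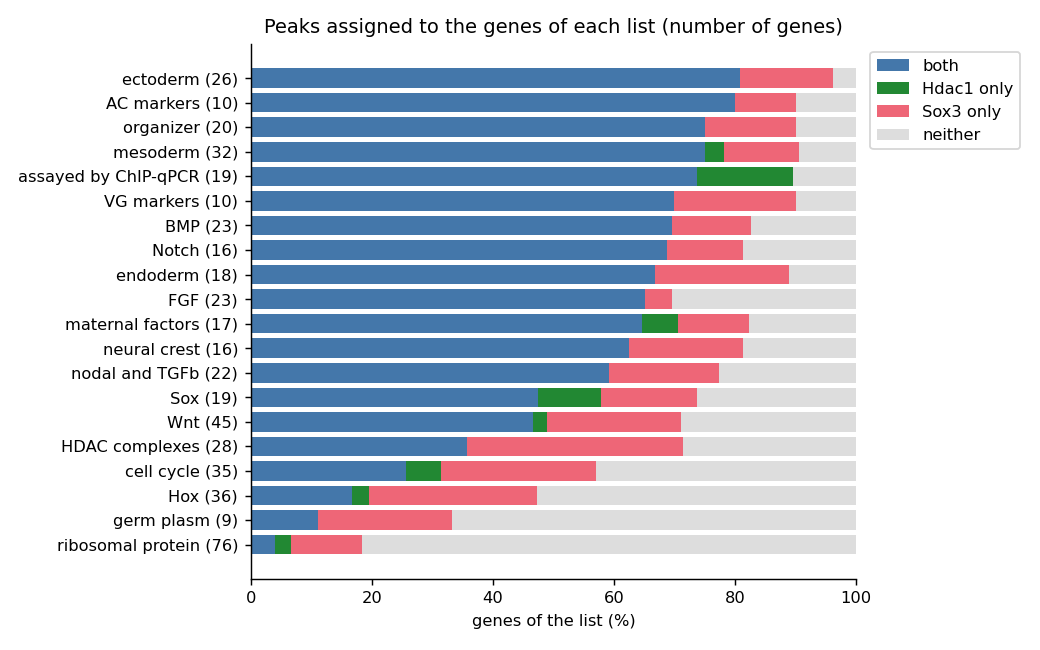
Share of the genes of 20 lists with peaks of both proteins, Hdac1 only, Sox3 only or neither (% of genes with a location, number in parentheses; nearest gene within 10 kb of a summit at st9). Ectoderm genes reach 80.8% with both and ribosomal protein genes 3.95% (3 of 76 genes), against 8.52% of all genes and 10.6% of protein-coding genes.

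Genes assayed by ChIP-qPCR in the study fell into 3 of the classes. These genes were chosen by the study with its own binding data known, so their classes are not independent evidence. Of 19 genes, 14 had both, *erfl*, *insm2* and *alkbh2* had Hdac1 only, and *fgf5* and *klf11* had neither. At *sp8*, the Hdac1 peak with the highest fold (10.9, chr6:39202290-39204711) had its summit 1 bp from a Sox3 summit of score 109. At *foxa4* (chr4:38405041-38406061) the fold was 8.93, the distance 14 bp and the score 93.6. *gdnf*, a neurotrophic factor gene, had a single pair (7.58, 3 bp, score 108), and *snai1* had a top fold of 19.8 with the summits 46 bp apart. At *erfl* the Hdac1 peak had a fold of 11.6 and the nearest Sox3 summit was 59927 bp away, and at *insm2*, a zinc finger gene, the fold was 11.2 and the distance 34674 bp. At *alkbh2*, a DNA repair enzyme gene, the fold was 5.86 and the distance 19213 bp. The folds at *erfl* and *insm2* are thus near that of the shared peak at *sp8*, and that at *alkbh2* is lower. *hspa4*, a heat shock protein gene that the study took as a negative region with an amplicon in the 3′ UTR, is among the genes with both. It had 2 pairs within 10 kb with a top fold of 11.5 and a top Sox3 score of 107. *fgf5*, a growth factor gene, was taken as a positive region, and no peak of either list lay within 10 kb of it. The amplicons were not placed, so the peaks of a gene do not tell what its amplicon holds. At *set*, a gene of a histone chaperone, the top Hdac1 peak (10.2) did not overlap Sox3, although another pair lay within 10 kb.

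RNA-seq of explants at st10.5 gave a readout that the peak lists did not use. It comes from a later stage than the binding, and the whole embryos used for binding hold both tissues. The libraries held from 16892304 to 54350327 counts, of which between 0.73% and 39.4% belonged to ribosomal RNA genes. Replicate 2 of AC with TSA (39.4%) and replicate 2 of AC with DMSO (35%) stood apart from the other libraries in both respects. Without ribosomal RNA genes, 369 genes were called for TSA in AC, against 350 with them. The labels of tissue held in the summed level of the marker genes, over treated and control libraries together. It was 2044 to 5948 TPM for AC markers in AC and 976 to 1471 in VG, and 56.4 to 536 TPM for VG markers in AC and 5982 to 8732 in VG. Gene by gene, 7 of the 10 AC markers and 10 of the 10 VG markers were higher in every library of their own tissue than in any of the other. In bulk samples, fewer cells of a type and less RNA per cell cannot be told apart. RNA of *sox3* itself was at 709 to 1260 TPM in AC and 110 to 367 TPM in VG, without overlap. That of *hdac1* was at 424 to 818 TPM in AC and 585 to 687 TPM in VG, with overlap. The overlap came from replicate 2 of AC with DMSO (445 TPM) and of AC with TSA (424 TPM), the libraries rich in ribosomal RNA. All other AC libraries had at least 770 TPM of *hdac1*, above every VG library. In the DMSO and water libraries, genes with both proteins had a median level of 11 to 14.1 TPM, those with Hdac1 only 11.4 to 18.6, those with Sox3 only 5.64 to 9.01 and those with neither 0.11 to 0.21, so the classes also differ in expression.

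Genes with both proteins were called more often between germ layers than the other classes. In DMSO, edgeR's quasi-likelihood test called 3311 of 15232 genes (21.7%) between AC and VG, taking genes with a Benjamini-Hochberg adjusted p under 0.05 whose fold exceeded 2. Among genes with both, 711 of 2144 were called (33.2%, 31.2 to 35.2%), against 19.4% of genes with Hdac1 only, 21.7% with Sox3 only and 19.2% with neither. Of the 711, 456 were higher in AC (21.3%, against 9.67% of all genes) and 255 were lower (11.9%, against 12.1%). The excess thus lay on the AC side. Leaving out 1 library at a time lowered both the number called in all and the share among genes with both. Shares of those fits can therefore not be set against the 21.7% of the full fit.

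The genes with both that differed most between AC and VG were absent or nearly so from one tissue. *foxi1*, a forkhead gene of the AC, had 52.7 and 30.1 CPM in AC and 0 in both VG libraries, and was at least 295-fold higher in AC. All folds against 0 are set against a floor of 3 counts per library. *mid1ip1*, a gene of lipid synthesis, had 11.6 and 24.3 CPM in AC and 0 in VG (at least 128-fold higher). *kcnj15*, a potassium channel gene, had 4.00 and 8.72 CPM in AC and 0 in VG (at least 45.3-fold higher), and *hgf*, the gene of hepatocyte growth factor, 2.65 and 7.06 CPM in AC and 0 in VG (at least 34.6-fold higher). These 4 genes had 3, 1, 1 and 1 Hdac1 peaks, all of which overlapped Sox3.

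The genes on the VG side were ligands, an inhibitor and a factor of mesendoderm. *nodal1*, a ligand of mesendoderm induction, had 0 CPM in AC and 32.2 and 20 CPM in VG, at least 251-fold lower in AC. *nodal2* had 0.0434 and 0 CPM in AC and 127 and 103 CPM in VG. *cer1*, a secreted inhibitor of nodal, BMP and Wnt, had 0.0434 and 0 CPM in AC and at least 46.8 CPM in VG, and *gsc* had 0.391 and 0 CPM in AC and 128 and 256 CPM in VG. The 8 genes were chosen among those whose groups did not overlap, the adjusted p was between 0.000221 and 0.00651 (edgeR), and each was called whichever library was left out. Reads of the neighboring copies *nodal1* and *nodal2* were shared out by estimation, so their single values are uncertain.

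With TSA, genes with both were called more often in AC than all genes tested, and most of those called fell. Of 15232 genes, edgeR called 350 (2.3%) in AC, 197 higher and 153 lower with TSA. Among genes with both, 116 of 2144 were called (5.41%, 4.53 to 6.45%), against 2.26% with Sox3 only and 1.57% with neither. With Hdac1 only it was 11 of 319 (3.45%, 1.94 to 6.07%), an interval that overlaps that of genes with both. Of the 116, 37 were higher (1.73%, against 1.29% of all genes tested) and 79 were lower (3.68%, against 1.0%). In genes with neither, 107 were higher and 40 lower. The classes differ in expression, as given above, and levels were not matched between them. The median log2 fold change of genes with both was -0.05 (quartiles -0.45 and 0.17), against 0.00 (-0.18 and 0.24) over all genes with a location. Same-numbered samples of this experiment deviated together in AC (r of 0.8). A replicate block within each tissue, chosen after seeing the data, gave far more calls, which are given in the closing section. Leaving out any 1 of the 8 libraries gave fewer calls, 31 (without replicate 1 of AC with DMSO) to 153 in all and 0.549% to 2.08% of genes with both.

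The genes with both that rose most in AC with TSA include genes of mesoderm. *tbxt.2*, a copy of the brachyury gene, had 55.6 and 22.8 CPM with TSA and 0.782 and 0.389 CPM with DMSO, a log2 fold change of 6.1 ± 0.67 (SE, n = 2 each, edgeR adjusted p = 0.0112). *osr1*, a zinc finger gene of the intermediate mesoderm, had 9.27 and 8.89 CPM with TSA and 0.521 and 0.259 CPM with DMSO (4.59 ± 0.36, edgeR adjusted p = 0.00571). LOC116409777 had 42.1 and 30.2 CPM with TSA and 1.87 and 0.908 CPM with DMSO. *pnpla2*, a lipase gene, had 1.71 and 2.22 CPM with TSA and 0.0869 and 0.0259 CPM with DMSO, the latter from 3 counts in all. Of these, *osr1* was called without any 1 library, *tbxt.2* lost its call in 2 of the 8 cases, LOC116409777 in 4 and *pnpla2* in all 8.

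The genes with both that fell most in AC with TSA include ventral genes and a gene of the AC. *gata2*, a ventral GATA factor gene, had 2.87 and 2.80 CPM with TSA and 219 and 203 CPM with DMSO (-6.21 ± 0.29, edgeR adjusted p = 0.00111). *ventx1.1* had 0.995 and 1.55 CPM with TSA and 141 and 108 CPM with DMSO (-6.57 ± 0.40), and *ventx1.2* had 1.43 and 1.09 CPM with TSA and 122 and 76.2 CPM with DMSO (-6.29 ± 0.46). *foxi4.1* had 0.0796 and 0.127 CPM with TSA and 9.17 and 13.0 CPM with DMSO (-6.64 ± 1.04, edgeR adjusted p = 0.0293), and lost its call in 6 of 8 cases. The other 3 kept theirs in all 8. The level of *foxi4.1* with TSA rests on 7 counts in all. By nearest gene, the peaks at *gata2* (chr4:135403346-135415633) were 1 Hdac1 peak, which overlapped Sox3, and 3 Sox3 peaks. The Hdac1 peak assigned to *ventx1.2* did not overlap any of the 2 Sox3 peaks assigned to it. Within 10 kb, however, *gata2* and *ventx1.2* had 2 overlapping pairs each.

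With TSA in AC, calls among the listed genes with both were falls in the ectoderm and BMP lists and of either direction in the mesoderm and organizer lists. For comparison, 1.29% of all genes tested were called higher and 1.0% lower, and of the genes with both 1.73% and 3.68%. Of 21 ectoderm genes 0 rose and 8 fell (median log2 fold change -1.90), and of 15 BMP genes 0 rose and 6 fell (-1.27). Of 12 endoderm genes 2 rose and 0 fell (1.31), of 15 organizer genes 3 rose and 2 fell (2.24) and of 22 mesoderm genes 4 rose and 6 fell (-0.54). The 9 genes of the cell cycle list and the 10 of deacetylase complexes had no call, with medians of -0.33 and -0.14. The lists share members, such as the *ventx* genes in the mesoderm and BMP lists, and the median over all genes tested was 0.00. Markers of the explants moved too, but all 10 AC markers are in the ectoderm list and all 10 VG markers in the endoderm list. They are therefore not a readout separate from these counts. The 10 AC markers summed to 3242 and 2044 TPM in AC with TSA and 5948 and 4032 TPM in AC with DMSO, with 0 called higher and 4 called lower. The 10 VG markers summed to 536 and 269 TPM in AC with TSA and 126 and 124 TPM in AC with DMSO, with 2 called higher and 0 called lower, against 7445 TPM or more in VG of the same experiment. No marker was at 0 in both libraries of either group, and the part of tissue makeup in these results was not tested.

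VPA in AC gave the same direction for genes with both, with a smaller excess. Of 15166 genes, edgeR called 319 (2.1%), 206 higher and 113 lower. Among genes with both, 65 of 2144 were called (3.03%, 2.39 to 3.85%), 20 higher (0.933%, against 1.36%) and 45 lower (2.1%, against 0.745%). The share was 5.92% (3.82 to 9.06%) in the 321 genes with Hdac1 only, of which 15 were higher and 4 lower, 2.28% with Sox3 only and 1.70% with neither. Among the list members with both, 0 rose and 7 fell of the 21 ectoderm genes (median log2 fold change -1.34), 0 rose and 3 fell of the 15 BMP genes (-0.88), and 1 rose and 0 fell of the 12 endoderm genes (1.29). The organizer list had no call of 15 (1.74), and in the mesoderm list 2 rose and 0 fell of 22 (-0.15). With the replicate number as a block, edgeR called 996 genes (6.57%), among them 9.7% of genes with both. The markers moved here as well, with 2799 and 2784 TPM in AC with VPA and 4984 and 4436 TPM in AC with water for the AC markers, and 344 and 156 TPM in AC with VPA and 56.4 and 82.5 TPM in AC with water for the VG markers, whose part was not tested either. Leaving out any 1 of the 8 libraries gave fewer calls, 1 to 97 in all and 0.0456% to 1.0% of genes with both, and the count was 1 without replicate 1 of AC with water and without replicate 1 of AC with VPA.

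Of the genes with both named for VPA, *gata2*, *tbxt.2*, *osr1* and *pnpla2* are those named for TSA. *gata2* had 1.13 and 2.07 CPM with VPA and 131 and 154 CPM with water (-6.46 ± 0.30, edgeR adjusted p = 0.00216), and was called without any 1 library. *prdm14*, a zinc finger gene, had 3.43 and 2.37 CPM with VPA and 69.8 and 63.9 CPM with water (-4.53 ± 0.48, edgeR adjusted p = 0.0276), and lost its call in 4 of 8 cases. *emx2*, a homeobox gene of the forebrain, had 39.0 and 22.5 CPM with VPA and 0.365 and 1.44 CPM with water (5.05 ± 0.75). *tbxt.2* had 16.4 and 7.76 CPM with VPA and 0.365 and 0.812 CPM with water (4.33 ± 0.60), and *osr1* 27.9 and 8.53 CPM with VPA and 1.1 and 0.812 CPM with water (4.26 ± 0.78). *msx1*, a homeobox gene downstream of BMP, had 1.37 and 0.300 CPM with VPA and 14.9 and 33.0 CPM with water (-4.87 ± 0.90). *tagln2*, an actin binding protein gene, had 0.403 and 1.70 CPM with VPA and 39.2 and 14.1 CPM with water (-4.65 ± 0.79). *pnpla2* had 7.46 and 2.80 CPM with VPA and 0.104 and 0.0902 CPM with water, the latter from 4 counts in all. All but *gata2* and *prdm14* lost their call whichever library was left out.

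**Figure D5:**
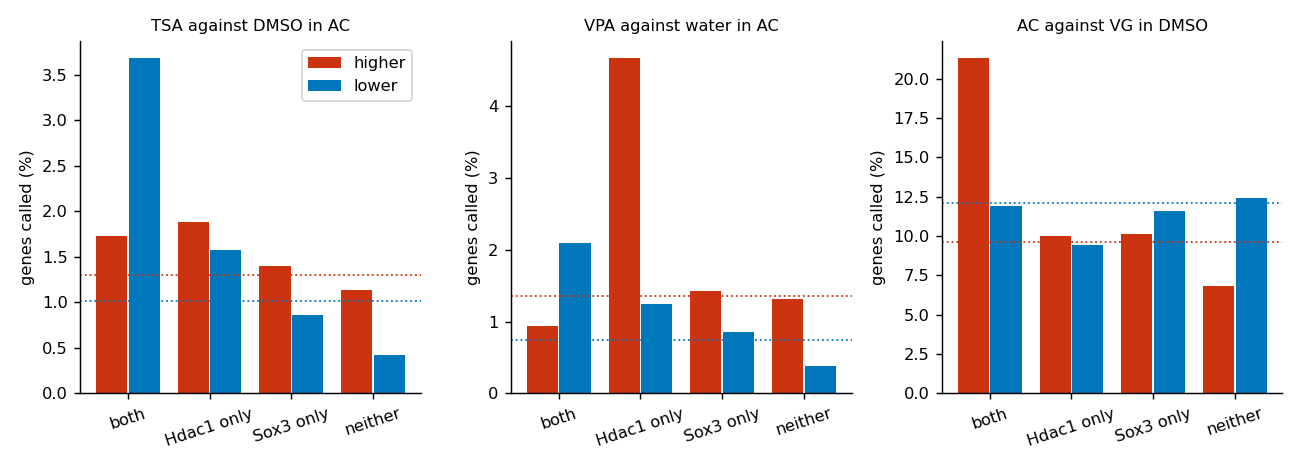
Share of genes called higher (red) or lower (blue) in 3 RNA-seq comparisons by edgeR (%), for genes with peaks of both proteins, Hdac1 only, Sox3 only or neither at st9, 2 libraries per group; dotted lines give the shares over all genes with a location. Genes with both are lower in 3.68% with TSA in AC and higher in 21.3% in AC against VG; the scales of the panels differ.

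In VG few genes were called without a replicate block. TSA gave 2 calls of 15232 (0.0131%), both lower, with 629 genes at an unadjusted p under 0.05 and 202 called by DESeq2. Leaving out any 1 library gave fewer calls. Same-numbered samples of the TSA experiment deviated together in VG (r of 0.775). A replicate block within each tissue, chosen after seeing the data, gave far more calls for TSA in VG, while a plain replicate block did not. Both counts are given in the closing section. VPA gave 0 calls of 15166 by edgeR, with 1340 genes at an unadjusted p under 0.05 and 359 called by DESeq2. With the replicate number as a block, edgeR called 241 genes for VPA in VG (1.59%), among them 3.4% of genes with both.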

How the data were processed

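Per the study's methods and the submitters' processing notes, ChIP-seq reads were mapped by the authors with Bowtie2 2.4.4 on version v10.0 of the *X. tropicalis* genome, and Macs2 called peaks against input. The deposited Hdac1, Hdac2 and pan-H3Kac lists give a fold over input and a −log10 q from Macs2. The deposited Sox3 list is output of the IDR tool and gives a score with no fixed unit, which in all 15695 peaks is the sum of the values of both input lists (tolerance 0.001), and a −log10 global IDR. The sources used here do not state what these input lists hold. The deposited RNA-seq files give expected counts per gene and TPM, estimated by the authors with RSEM 1.3.3 after STAR 2.7.3a, with strand and clutch not given in the sources used here.

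Overlaps of at least 1 bp, summit distances (start plus summit offset), and the nearest gene span within 10 kb of a summit (28773 RefSeq genes with a location in the same assembly) were computed with Python 3.11.15, pandas 2.3.3 and scipy 1.17.1. Intervals are Wilson 95%. Rounded expected counts were tested with R 4.3.3 and edgeR 4.0.16 (TMM, filterByExpr, quasi-likelihood F test, a mean per group over the 8 libraries of an experiment, Benjamini-Hochberg over all genes tested), after the code was tested on simulated data. The SE of a log2 fold change is its size divided by the square root of F. Library depth ran from 16892304 to 54350327 counts, and the depth behind peaks is unknown.

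Named peaks are the 5 highest of each class, named genes those assayed by ChIP-qPCR, up to 6 of each list with most overlapping pairs, the 5 with most shared peaks, and per RNA comparison except the inhibitors in VG, where a result is not reported here, the 4 largest rises and falls among called genes with both whose groups do not overlap. Members and lists were chosen with earlier results of these data known. Same-numbered samples of the VPA experiment deviated together from their group means (r of 0.461 to 0.631 in all 6 pairs of groups), so its counts with a replicate block are given beside the results, while those of the TSA experiment did so only within a tissue. Alternatives were a larger overlap, stricter thresholds, midpoints, other gene distances, DESeq2 1.42.0, RLE size factors, no filter, a replicate block and leaving out each library. Motifs and exons were not analysed here, since no genome sequence was used.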

Additional observations from a re-analysis of the deposited data

Results flagged for a closer look

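The effect of an inhibitor differed between AC and VG for 4 of the genes with both proteins named above, by an edgeR contrast of the effects with p adjusted over all genes tested. With TSA, *gata2* changed by -6.21 (log2) in AC and -1.03 in VG, a difference of -5.18 ± 0.35 (SE, edgeR adjusted p = 0.0129). *osr1* changed by 4.59 in AC and -1.46 in VG with TSA (6.05 ± 0.46, edgeR adjusted p = 0.0148). *ventx1.1* changed by -6.57 in AC and -0.21 in VG (-6.37 ± 0.49, edgeR adjusted p = 0.0148), and *ventx1.2* by -6.29 in AC and -0.53 in VG (-5.76 ± 0.55, edgeR adjusted p = 0.0303). With VPA, *gata2* changed by -6.46 in AC and -0.81 in VG (-5.65 ± 0.36, edgeR adjusted p = 0.018). These genes were named for their large changes in AC. Their changes in VG were not called on their own, and their levels in VG are not given here. Over all genes, 13 differed in this way with TSA and 1 with VPA. For *osr1* with VPA (5.41 ± 1.0, edgeR adjusted p = 0.461) and for *tbxt.2*, *foxi4.1*, *pnpla2*, LOC116409777, *emx2*, *msx1*, *prdm14* and *tagln2* the difference did not pass the test.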

How the results depend on the processing

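The share of Hdac1 peaks with Sox3 was 85.8% and that of Sox3 peaks with Hdac1 28.3% when only peaks above the median of each list were kept; 79.1% of Hdac1 summits then had a Sox3 summit within 100 bp, and the genes with both, Hdac1 only and Sox3 only were 1379, 176 and 2517. With Sox3 peaks at a global IDR of 0.01 or less, chosen after seeing the data, the 3 shares were 77.9%, 32.7% and 69.6%. Midpoints in place of summits gave a median distance of 54.5 bp and 58.1% within 100 bp. The median Sox3 score with Hdac1 minus without was 9.53 and 9.65 on the values of the single input lists, by construction below that of their sum. All other alternatives for peaks and genes moved these values by less than 1.5 times or stayed within their intervals, and none reversed a direction.

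Counts of called genes depend on the tool. DESeq2 called 951, 202, 899 and 359 genes for TSA in AC, TSA in VG, VPA in AC and VPA in VG, and 3965 between AC and VG. The filter left 15232 genes in the TSA experiment and 15166 in the VPA experiment. Of the genes with both, DESeq2 called 12.9%, 3.59%, 10.4% and 5.32%, with 37.7% between AC and VG. Without a filter on low counts edgeR called 23 genes for TSA in VG, 537 for VPA in AC and 73 for VPA in VG, and of the genes with both 0.455%, 5.28% and 1.5%, with 30.4% between AC and VG. The shares over all genes without the filter are not given here, so these values alone do not show an excess. Assigning every gene within 10 kb of a summit gave 31.1% between AC and VG, against 21.7% of all genes tested. Leaving out 1 library gave 31 to 153 calls for TSA in AC (0.549% to 2.08% of genes with both), 0 to 1 for TSA in VG (0.0%), 1 to 97 for VPA in AC (0.0456% to 1.0%), 0 for VPA in VG (0.0%) and 1753 to 3235 between AC and VG (18.7% to 31.8%). A lone library in a group is then assumed to vary like the others. The number called in all fell in these fits too, so their shares cannot be set against those over all genes in the full fits.

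With 2 replicates per group, and with nothing in the labels on what a number shares, the pairing by replicate number could not be settled. With a replicate block, edgeR called 427, 0, 996 and 241 genes in the same order, with 6.48%, 0.0%, 9.7% and 3.4% of genes with both, and 35.5% between AC and VG. Of all genes tested, this block called 6.57% for VPA in AC and 1.59% for VPA in VG. The share over all genes beside the 35.5% is not given here. A replicate block within each tissue, chosen after seeing the data, called 1674, 263, 823 and 26 genes, and 5271 between AC and VG. Of the genes with both, it called 17.9%, 4.48%, 8.68% and 0.466%, and 44.0% between AC and VG. Shares over all genes are not given here for this block, so these values alone do not show an excess. The deviations of same-numbered samples had an r of 0.8 in AC and 0.775 in VG in the TSA experiment, and of -0.0952 to -0.051 across its tissues. The cause of these differences was not tested. The depth behind peaks is unknown, so a missing peak limits nothing about weak binding.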
